A study of Mus musculus with 22 samples.

Results

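Mice that carried the Trp53 R172H point mutation in urothelial cells were compared by the promoter that drove its recombination: 4 arrays with the basal Krt5 driver against 3 arrays with the luminal Upk2 driver. These 7 arrays, all those whose titles name R172H with either driver, come from a series of 22 arrays of mouse bladder RNA. The Krt5 animals had the genotype Krt5-CreERT2, LSL-RFP and Trp53R172H/+, and the Upk2 animals had Upk2-CreERT2, LSL-RFP and Trp53R172H/+. Both groups received tamoxifen, which activates CreERT2, and the bladder carcinogen BBN (N-butyl-N-(4-hydroxybutyl)nitrosamine) in drinking water for 24 weeks, from 2 to 8 months of age, when the bladders were taken. Both genotypes also hold a wild-type Trp53 allele and the LSL-RFP reporter. Whether the bladders taken still held that allele in all cells was not tested. The other BBN groups of the series were Krt5 R270H (3 arrays), Upk2 R270H (2), Krt5 Cre without a mutant allele (2), Upk2 Cre without a mutant allele (2) and Trp53 heterozygotes with neither Cre nor tamoxifen (3). The genotype entry of these heterozygotes names the R270H allele. Normal bladders were wild type, with neither tamoxifen nor BBN (3), and their titles read normal urothelium. Total RNA of each bladder was hybridised to a 1-colour Agilent array. The series title places the question in the part that mutant Trp53 in Krt5-expressing basal cells plays in basal, squamous-like bladder cancer.

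p53 is a transcription factor that stops the cell cycle and starts repair or cell death after DNA damage. The R172H protein is misfolded, and R270H has lost a residue that contacts DNA. The urothelium has a basal layer that holds keratins 5 and 14 and a luminal layer of umbrella cells that holds uroplakins, the membrane proteins of the bladder's permeability barrier. In the CreERT2 design only cells in which the driver promoter is active when tamoxifen is given recombine the allele, together with their descendants. Each array here read a whole bladder labelled as a tumor, not sorted recombined cells, so that fewer cells of a type and less RNA per cell cannot be told apart. The share of cells that had recombined was not tested.

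Promoter stretches are shown for Krt5, the gene that names the basal driver, and for the genes among the largest differences below that have an entry in the RefSeq table (GRCm38.p6). Each stretch is the 250 bases before the gene's start, 5′ to 3′ on the gene's own strand. Capitals mark the E box letters CANNTG and the TATA-like letters ATAAAA. Krt5 lies on the minus strand at chr15:101712906-101713155, Foxr1 on the minus strand at chr9:44440869-44441118 and Hddc3 on the plus strand at chr7:80342887-80343136.
Krt5: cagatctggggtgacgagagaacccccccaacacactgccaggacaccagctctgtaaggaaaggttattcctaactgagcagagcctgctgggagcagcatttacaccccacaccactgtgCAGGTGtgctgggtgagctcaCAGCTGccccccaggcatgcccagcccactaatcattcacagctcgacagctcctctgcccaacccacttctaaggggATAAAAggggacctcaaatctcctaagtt
Foxr1: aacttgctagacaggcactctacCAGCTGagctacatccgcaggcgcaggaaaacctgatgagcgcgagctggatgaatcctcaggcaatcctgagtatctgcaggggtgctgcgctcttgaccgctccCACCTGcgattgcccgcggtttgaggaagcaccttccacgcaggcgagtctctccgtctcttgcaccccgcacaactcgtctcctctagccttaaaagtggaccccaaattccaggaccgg
Hddc3: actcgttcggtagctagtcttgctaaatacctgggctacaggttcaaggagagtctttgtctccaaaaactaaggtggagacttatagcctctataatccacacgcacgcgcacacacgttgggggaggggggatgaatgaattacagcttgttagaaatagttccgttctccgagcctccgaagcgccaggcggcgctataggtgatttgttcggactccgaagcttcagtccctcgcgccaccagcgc
The Krt5 stretch holds 2 E boxes and 1 TATA-like match, the Foxr1 stretch holds 2 E boxes, and the Hddc3 stretch holds none of the 6 motifs searched on both strands. E box letters occur in 66.2% and ATAAAA in 17.0% of the 32851 stretches of that length. The TATA box letters TATAAA, which can overlap the TATA-like letters, occur in 12.4% of stretches. The AP-1 letters TGANTCA occur in 6.75%, the GATA letters AGATAA in 9.99% and the GC box letters GGGCGG in 32.7%. Whether the Krt5-CreERT2 line carries this stretch is not given in the sources used here.

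Values below are log2 gProcessedSignal, the scanner's background-subtracted signal, minus the same array's 75th percentile, so 0 is that percentile. A difference is Krt5 minus Upk2 on that log2 scale, and levels of different genes are not set against each other. Krt5 R172H arrays 1 and 2 were on slide 2 and had 42.4% and 43.0% of spots well above background. Krt5 R172H arrays 3 and 4 and all 3 Upk2 R172H arrays were on slide 3, with 57.6% to 62.9%. Slide 2 was read on scanner G2505C and slide 3 on scanner G2600D, so slide and scanner cannot be told apart for these 7 arrays. Slide 2 held no Upk2 R172H array, so a within-slide value is 2 Krt5 arrays against 3 Upk2 arrays on slide 3, and it stands beside the pooled differences of the genes described most fully. The 3 normal arrays were alone on slide 4, so slide and group cannot be told apart where levels stand beside normal bladders. Correlations over 11776 genes were 0.880 to 0.943 within Krt5 R172H, 0.953 to 0.963 within Upk2 R172H and 0.920 to 0.964 between them. On 4 of 4 Krt5 arrays and 2 of 3 Upk2 arrays Xist and the Y-linked genes did not match the labelled sex. Each of the 7 arrays has its own sample code, but no label says that the codes are animals, so p-values measure the spread between these samples. The codes of Krt5 arrays 3 and 4 share their first part, as do those of Krt5 array 1 and Upk2 array 1.

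No gene differed between Krt5 R172H and Upk2 R172H bladders after adjustment when each array was counted separately. In limma's moderated test over 17404 genes, 0 passed an adjusted p of 0.05 (0%), and the lowest adjusted p was 0.0928. At an unadjusted p of 0.05, 609 genes (3.5%) differed, of which 476 genes (2.74%) were higher in Krt5 bladders and 133 (0.764%) lower. The arrays of the 2 groups did not overlap for 558 genes on the higher side (3.21%) and 241 on the lower side (1.38%), or 4.59% together. Among the 14573 genes above background on every array of at least 1 group these were 384 (2.64%) and 241 (1.65%). The median difference of all genes was 0.08, and 0.005 on slide 3. Among the 2493 genes above background on 2 to 10 of the 22 arrays the median was 0.73, against −0.10 on slide 3. The excess of higher genes was not present within slide 3, where 50.7% of genes lay above 0, against 58.4% over all 7 arrays. The median standard error of a difference was 0.41. The 2 Upk2 Cre-only arrays, which enter the estimate of the spread, share a sample code, as do Trp53 heterozygote arrays 1 and 2. With shared codes averaged, Cxcr5 and Hddc3 passed in limma (adjusted p = 0.0455 and 0.0378).

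Genes named by t were above background on every array of at least 1 R172H group, with predicted genes left out. Among these the largest t values in size, those of Hddc3 and Cxcr5, were on the lower side. Hddc3, an HD-domain hydrolase also called MESH1, read −4.01, −4.86, −3.42 and −4.44 on the Krt5 R172H arrays, against −1.24, −1.80 and −1.94 on the Upk2 R172H arrays. The groups did not overlap, and the Upk2 arrays were the high ones. Hddc3 was above background on 3 of 3 Upk2 arrays and on 2 of 4 Krt5 arrays, those of slide 3, so the values of Krt5 arrays 1 and 2 are not measured levels. The fitted difference was −2.52 (SE 0.38, 95% interval −3.34 to −1.71, adjusted p = 0.0928), and −2.27 on slide 3. With a common floor for all arrays it was −1.03. Without Krt5 array 3 it passed in limma, at −2.78 (adjusted p = 0.0366), and its adjusted p ranged from 0.0143 to 0.99998 over the alternatives. In R270H bladders it read −4.18 to −4.02 on the Krt5 arrays and −2.12 and −1.98 on the Upk2 arrays, where 0 of 3 Krt5 arrays and 2 of 2 Upk2 arrays were above background. In the Cre-only bladders both drivers read low, at −4.69 and −3.69 with Krt5 and −4.92 and −4.78 with Upk2. Only 1 of 2 arrays was above background with each driver there, so the −4.69 and the −4.78 are not measured levels. Normal bladders read −2.51 to −2.06, close to the Upk2 mutant arrays, and Trp53 heterozygotes −4.91 to −3.31. The heterozygotes were above background on 1 of 3 arrays.

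Cxcr5, the receptor for CXCL13 on B cells and follicular helper T cells, had the largest fitted difference among these. That rank rests on Krt5 R172H values that are not measured levels. Cxcr5 read −5.02, −5.07, −8.04 and −6.70 on the Krt5 R172H arrays, against −1.87, −1.22 and −2.02 on the Upk2 R172H arrays. It was well above background on 0 of 4 Krt5 arrays and 3 of 3 Upk2 arrays. As a bound it was at least 5.81-fold lower in Krt5 bladders, and at least 16.7-fold lower over the slide 3 arrays. A bound of this kind sets the mean of the brighter group against the lowest signal that counted as above background, or the probe's own where that was higher, on each dimmer array. The fitted difference was −4.51 (SE 0.84, 95% interval −6.27 to −2.74, adjusted p = 0.227, and 0.0223 to 0.9999 over the alternatives). Of the B cell markers reported, Cd79b differed by −0.09, and by −0.07 on slide 3. Cd79a was above background on 1 of 4 Krt5 arrays and 0 of 3 Upk2 arrays, and Ms4a1 on 0 of 7 arrays, so they give no comparison.

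Among the lower genes Foxr1 and Bcl9l were next in order by t. Foxr1, a forkhead transcription factor, read −5.01, −2.40, −5.23 and −5.31 in Krt5 R172H bladders, against −2.22, −1.49 and −2.10 in Upk2 R172H bladders. Its difference was −2.55 (SE 0.58, adjusted p = 0.601), and −3.33 on slide 3. Foxr1 was above background on 3 of 3 Upk2 arrays and 3 of 4 Krt5 arrays. The −5.01 of Krt5 array 1 is not a measured level. Krt5 array 2 was close to the Upk2 arrays. Without that array Foxr1 differed by −3.25 with an adjusted p of 0.00844 (limma, 3 against 3 arrays), and over all alternatives the adjusted p ranged from 0.00844 to 0.99998. Bcl9l, a coactivator of β-catenin, read 2.45, 2.29, 2.44 and 2.17 in Krt5 bladders, against 3.28, 3.27 and 3.17 in Upk2 bladders. These ranges were narrow and apart, with a difference of −0.90 (SE 0.22, adjusted p = 0.929) and −0.93 on slide 3. The other 2 probes of Bcl9l gave −1.57 and −0.49.

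Cxcr5, Foxr1 and Bcl9l lie beside Upk2 on chromosome 9, in the order Ccdc84, Foxr1, Upk2, Bcl9l, Cxcr5, Ddx6. This was noticed after the values were seen, so the neighbours as a set were given no test. Of the 20 tested genes nearest Upk2, these 3 were lower in Krt5 R172H bladders without overlap and 0 were higher without overlap, beside 1.38% and 3.21% of all genes, and the other 17 ranged from −1.15 to 0.43. Upk2 itself, a uroplakin of umbrella cells, read −3.53, −1.35, −0.52 and 0.03 with Krt5, against 0.06, 0.55 and 0.29 with Upk2. It differed by −1.64 (SE 0.84, 95% interval −3.42 to 0.14, adjusted p = 0.9998), and by −0.54 on slide 3. Of the 20 genes nearest Krt5 on chromosome 15, 1 was lower without overlap (Krt4) and 0 were higher, beside the same shares of all genes, with a range of −1.73 to 1.62.

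These 3 neighbours of Upk2 were also higher with the Upk2 driver in R270H and Cre-only bladders, by their means. Cxcr5 read −2.51 to −1.22 on all 7 Upk2-driver arrays of the series and was above background on 7 of 7. On the other 15 arrays, normal bladders among them, it read −8.04 to −3.17 and was above background on 2. Foxr1 read −2.57 to −1.49 on the Upk2-driver arrays and −5.31 to −2.40 on the other 15. Of these 15, Krt5 R172H array 2 alone lay within the Upk2 range. Foxr1 was above background on 7 of 7 Upk2-driver arrays and 11 of the other 15. Bcl9l read 2.62 to 3.37 and 1.77 to 2.87, with 5 of the 15 inside the Upk2 range. Within each of the 3 slides, Cxcr5 and Foxr1 were lower on every Krt5-driver array than on every Upk2-driver array. Bcl9l was lower in this way on slides 1 and 3 and overlapped on slide 2. The R172H arrays, on which these genes were picked, enter the ranges above and slides 2 and 3. Slide 1 held none of them, and there 3 Krt5-driver arrays stood against 1 Upk2-driver array. Where the CreERT2 sequence was inserted, and in what form, is not given in the sources used here, and its part in these levels was not tested.

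**Figure D1:**
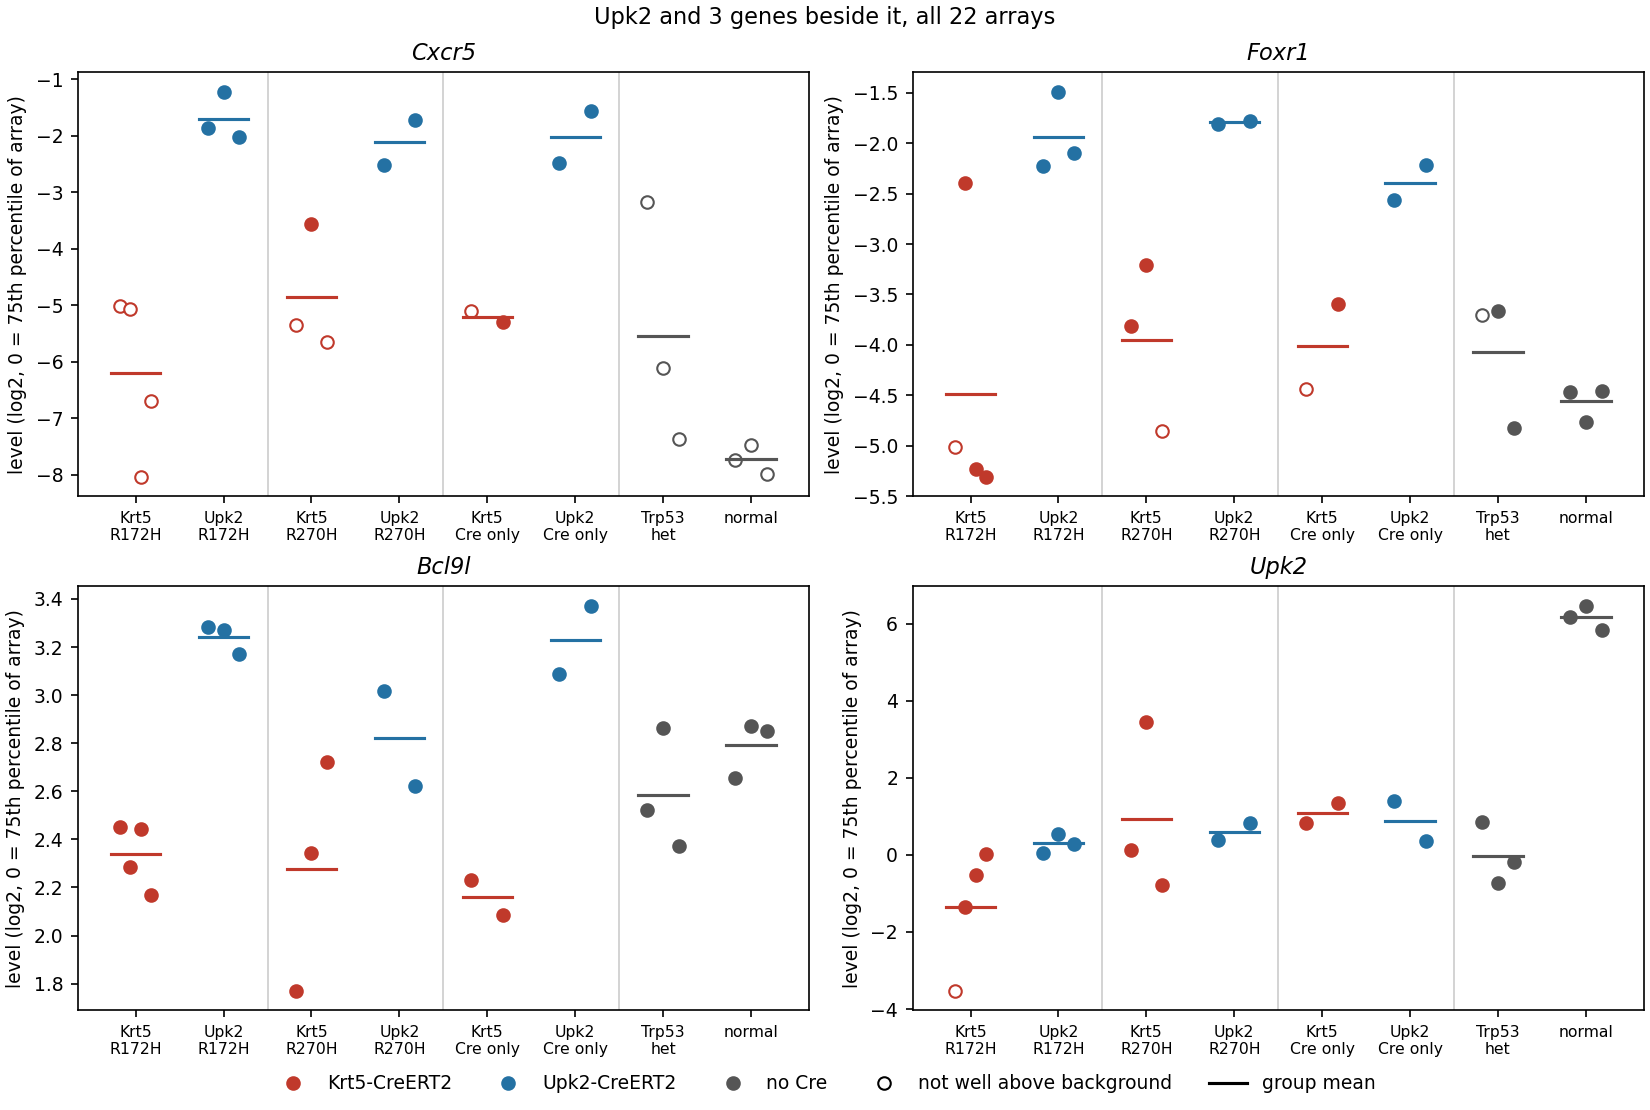
Log2 level (scaled to each array's 75th percentile) of Cxcr5, Foxr1, Bcl9l and Upk2 by group, with 1 point per array, open where the probe was not well above background, and a bar at each group mean. The 7 Upk2-driver arrays stand at −2.51 to −1.22 for Cxcr5, above the other 15 arrays at −8.04 to −3.17. Normal bladders are the highest group for Upk2 itself, at 6.16 ± 0.32 (SD, n = 3).

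**Figure D2:**
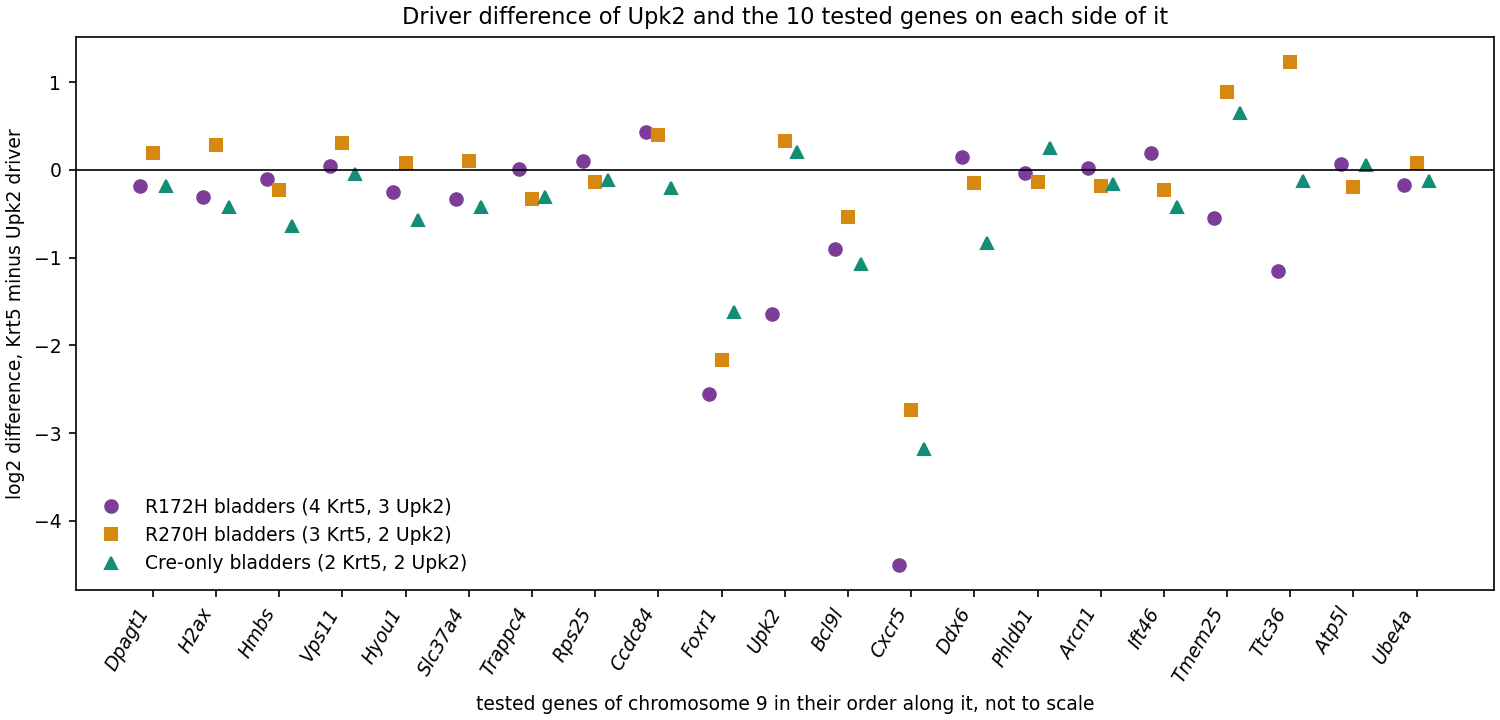
Log2 difference, Krt5 minus Upk2, of the genes nearest Upk2 in gene order, for R172H, R270H and Cre-only bladders, with the 10 tested genes on each side and distances not to scale. Cxcr5 (−4.51), Foxr1 (−2.55) and Bcl9l (−0.90) stand below 0 in R172H bladders, and the other 17 of the 20 neighbours lie between −1.15 and 0.43.

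The remaining genes of the 10 lowest by t were Robo3, Zfp985, Oit1, Phf20l1, Sytl2 and Cxcl17. Robo3, an axon guidance receptor, differed by −2.20 (SE 0.60) and by −2.03 on slide 3. Zfp985, which encodes a zinc finger protein, read −2.02, −0.67, −0.03 and −0.18 with Krt5 and 1.48, 0.47 and 0.97 with Upk2, and its other probe gave −1.69 beside −1.70. Phf20l1, a reader of methylated lysines, differed by −0.77 (SE 0.22), and its other probes gave −0.98 to −0.50. Robo3 was above background on 2 of 4 and Cxcl17 on 1 of 4 Krt5 arrays. Sytl2, a Rab27 effector, differed by −2.56 (−1.14 to −0.61 by its other probes) in R172H bladders, −1.95 in R270H bladders and 2.08 in Cre-only bladders. Cxcl17, a chemokine of mucosal surfaces, read −2.83, −4.84, −4.58 and −6.29 with Krt5, against −4.61, 1.23 and 0.51 with Upk2. It was the only gene of the 10 whose groups overlapped, through Upk2 array 1. None of these 6 genes passed (adjusted p = 0.9998 each).

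Among the 10 highest by t, Manba, the lysosomal β-mannosidase, had the narrowest Krt5 group (SD 0.12). It read 1.70, 1.44, 1.66 and 1.64 on the Krt5 R172H arrays and 0.60, 0.88 and 0.32 on the Upk2 R172H arrays. The difference was 1.01 (SE 0.23, 95% interval 0.53 to 1.49, adjusted p = 0.601), and 1.05 on slide 3. Scx, a transcription factor of tendon cells, read −0.22, −1.65, −0.85 and −0.77 with Krt5 and −2.85, −2.74 and −2.77 with Upk2, a difference of 1.91 (SE 0.47, adjusted p = 0.929) and 1.98 on slide 3. Gtf2e2, a subunit of the general transcription factor TFIIE, read 2.00, 1.29, 1.19 and 2.14 with Krt5 and 0.99, 0.57 and 0.48 with Upk2, a difference of 0.97 and 0.98 on slide 3. For all 10 highest genes the groups did not overlap. The cadherin Cdh6 differed by 1.78 (2.31 by its other probe), Pxylp1, a phosphatase of the proteoglycan linker, by 1.61, and Lrp4, a co-receptor for agrin, by 1.15 (0.09 to 1.54 by its other 3 probes). Klhl30 and Klhl29, both Kelch-like proteins, differed by 2.07 and 1.95, Ttyh2 by 1.02 and the calsyntenin Clstn3 by 0.77. Cdh6 was above background on 3 of 3 Upk2 arrays but on 2 of 4 Krt5 arrays, those of slide 3. Its values on Krt5 arrays 1 and 2 are not measured levels. Klhl30 was above background on 4 of 4 Krt5 arrays and 2 of 3 Upk2 arrays. On slide 3 the differences ran from 0.49 for Clstn3 to 2.24 for Pxylp1, a direction that groups without overlap fix in advance.

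**Figure D3:**
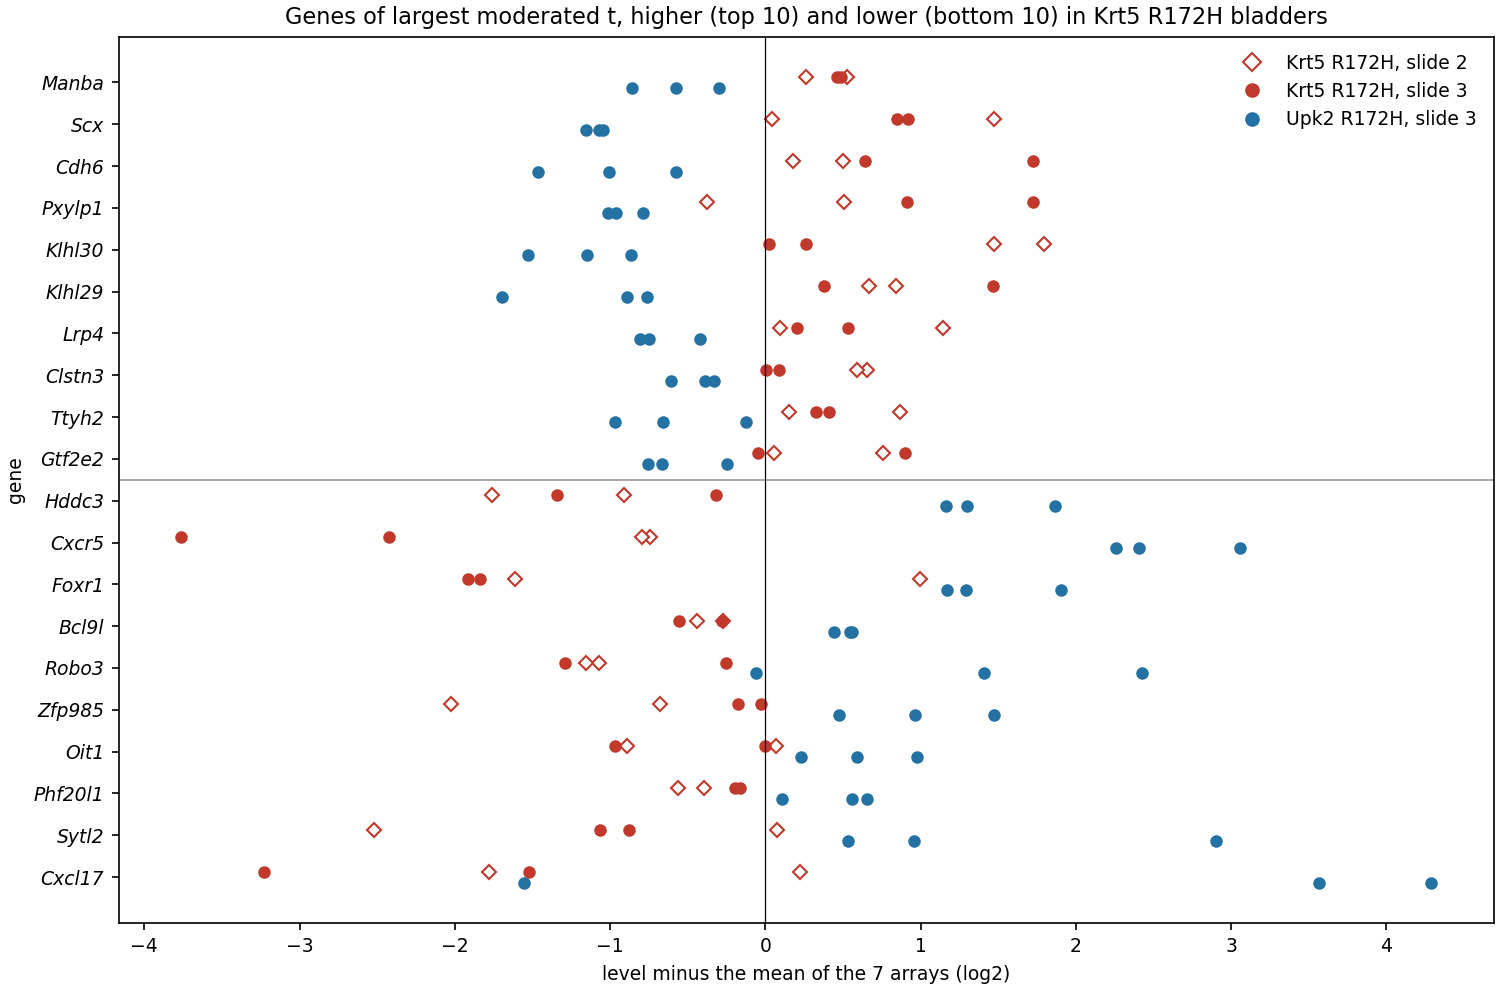
Log2 level minus the mean of the 7 R172H arrays for the 10 highest and 10 lowest genes by t, with 1 point per array and the slide 2 arrays as open diamonds. The genes were picked by t on these same arrays. For 19 of the 20 the Krt5 arrays and the Upk2 arrays do not overlap, the exception being Cxcl17.

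These 20 genes were chosen on the R172H arrays, so the other 9 driver arrays (3 R270H and 2 Cre-only with Krt5, 2 R270H and 2 Cre-only with Upk2) are the independent check of their direction. There limma called 0 genes (0%), with 485 (2.79%) at an unadjusted p of 0.05. Of the 20 genes, 14 went the same way, and taken by allele 19 did so in R270H and 13 in Cre-only bladders. Cxcr5, Foxr1, Scx and Gtf2e2 did not overlap between drivers there, in the same directions as in R172H bladders, and reached the smallest p that 5 against 4 arrays allow in an exact two-sided permutation test (0.0159, adjusted p = 0.0794 over the 20 genes). Groups without overlap were rare in those arrays, at 27 genes on the lower side (0.155%) and 55 on the higher side (0.316%) of 17404. Bcl9l and Klhl30 gave an exact p of 0.0317 (adjusted p = 0.106) and Pxylp1 of 0.0476 (adjusted p = 0.136), and 0 of the 20 passed after adjustment. Both Upk2 Cre-only arrays carry the same sample code. With them averaged, the smallest exact p the design allows is 0.0357, which the same 4 genes and Pxylp1 reached. Over all 16 driver arrays limma called 0 genes (0%; 892, or 5.13%, at an unadjusted p of 0.05), with the lowest adjusted p of these 20 at 0.213 for Cxcr5.

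The genes that define the design were measured next. Trp53 read 1.21, −1.31, −0.60 and −0.61 on the Krt5 R172H arrays and 0.01, −1.63 and 0.94 on the Upk2 R172H arrays. The groups overlapped, with a difference of −0.10 (SE 0.63, 95% interval −1.43 to 1.23), and −0.38 on slide 3. Its probe reads mutant and wild-type transcripts alike, so it does not check the allele. Krt5, the basal keratin, read 9.71, 8.73, 8.08 and 8.04 with Krt5 and 8.11, 7.92 and 8.73 with Upk2, a difference of 0.39 (SE 0.44, interval −0.54 to 1.32), and −0.19 on slide 3. Krt14, its partner in the basal layer, read 10.20, 10.30, 8.44 and 8.32 against 8.28, 8.37 and 8.77, a difference of 0.84 (SE 0.61, interval −0.44 to 2.13) and −0.09 on slide 3. Only the slide 2 arrays were high for it. Krt5 and Krt14 averaged 6.64 ± 0.19 and 0.88 ± 1.04 in normal bladders (SD, n = 3), below every R172H array. Cdkn1a, the p53 target that encodes the cell cycle inhibitor p21, read 1.85, 2.14, 0.27 and 1.05 with Krt5 and 1.31, 1.89 and 2.47 with Upk2, a difference of −0.56 (SE 0.54, interval −1.71 to 0.58) and −1.23 on slide 3. Its other probe gave −0.13. None of the 5 genes, Upk2 included, passed (adjusted p = 0.9998).

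Luminal markers were lower in Krt5 R172H bladders in 24 of 29 tested members, with a median difference of −0.34 beside 0.08 for all genes, and −0.38 on slide 3. Leaving out each array in turn gave medians of −0.49 to −0.33. The mean level of the list did not overlap, at 1.35, 1.83, 1.63 and 2.02 with Krt5, against 2.33, 2.42 and 2.06 with Upk2. It was 4.23 ± 0.10 in normal bladders (SD, n = 3), above every R172H array. No member passed. At an unadjusted p of 0.05, 1 was lower and 0 were higher, beside 0.764% and 2.74% of all genes. That member was the uroplakin Upk1b, at −2.85, 0.61, 0.50 and 2.56 with Krt5 and 3.28, 2.61 and 1.98 with Upk2, a difference of −2.42 (SE 0.91, adjusted p = 0.9998), and −1.09 on slide 3. Upk1a differed by −1.60 and Upk3a by −2.83, and their slide 3 values were −0.60 and −1.73. Pparg, a nuclear receptor that drives urothelial differentiation, read 0.49, 1.77, −0.14 and 2.21 with Krt5 and 2.63, 2.47 and 1.98 with Upk2, a difference of −1.28 and −1.33 on slide 3. The luminal medians were 0.13 in R270H and 0.13 in Cre-only bladders.

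Basal and squamous markers gave no stable direction across the slides. Of 24 basal markers 18 were above 0, with a median of 0.31, but on slide 3 5 were above 0 and the median was −0.13. Cdh3, P-cadherin, differed by 0.68 (0.25 on slide 3), while the keratin Krt15 differed by −1.19 (−0.07 on slide 3) with Krt5 array 1 apart, which read 3.35 against 6.91 to 7.56 on the other 6. Of the 33 tested squamous genes 20 were above 0, with a median of 0.13, against 2 above 0 and a median of −2.11 on slide 3. Leaving out each array gave squamous medians of −0.77 (without Krt5 array 2) to 1.42 (without Krt5 array 3). The mean squamous level was 3.45, 4.26, −1.92 and 1.01 with Krt5, against 0.51, 1.97 and 1.88 with Upk2. The slide 2 arrays were the highest and Krt5 array 3 the lowest of the 7, and normal bladders averaged −3.17 ± 0.12 (SD, n = 3). Lor, the cornified envelope protein loricrin, read 5.10, 6.65, −0.12 and 2.11 with Krt5 and 0.70, 2.52 and 1.27 with Upk2. Slide, scanner and squamous level cannot be told apart for the 2 high arrays. Dsg1a, a desmosomal cadherin of stratified epithelia and the only member higher at an unadjusted p of 0.05, read −2.07, −1.94, −7.83 and −5.61 with Krt5 and −7.57, −7.53 and −7.15 with Upk2. It was above background on 2 of 4 Krt5 arrays and 0 of 3 Upk2 arrays, and differed by 0.70 on slide 3. Krt4, the only member lower at that threshold, a keratin of suprabasal cells in stratified mucosa, read 2.72, 2.65, 2.42 and 2.20 with Krt5 and 4.12, 3.54 and 5.03 with Upk2. Its groups did not overlap, with a difference of −1.73 (SE 0.54, adjusted p = 0.9998) and −1.92 on slide 3.

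**Figure D4:**
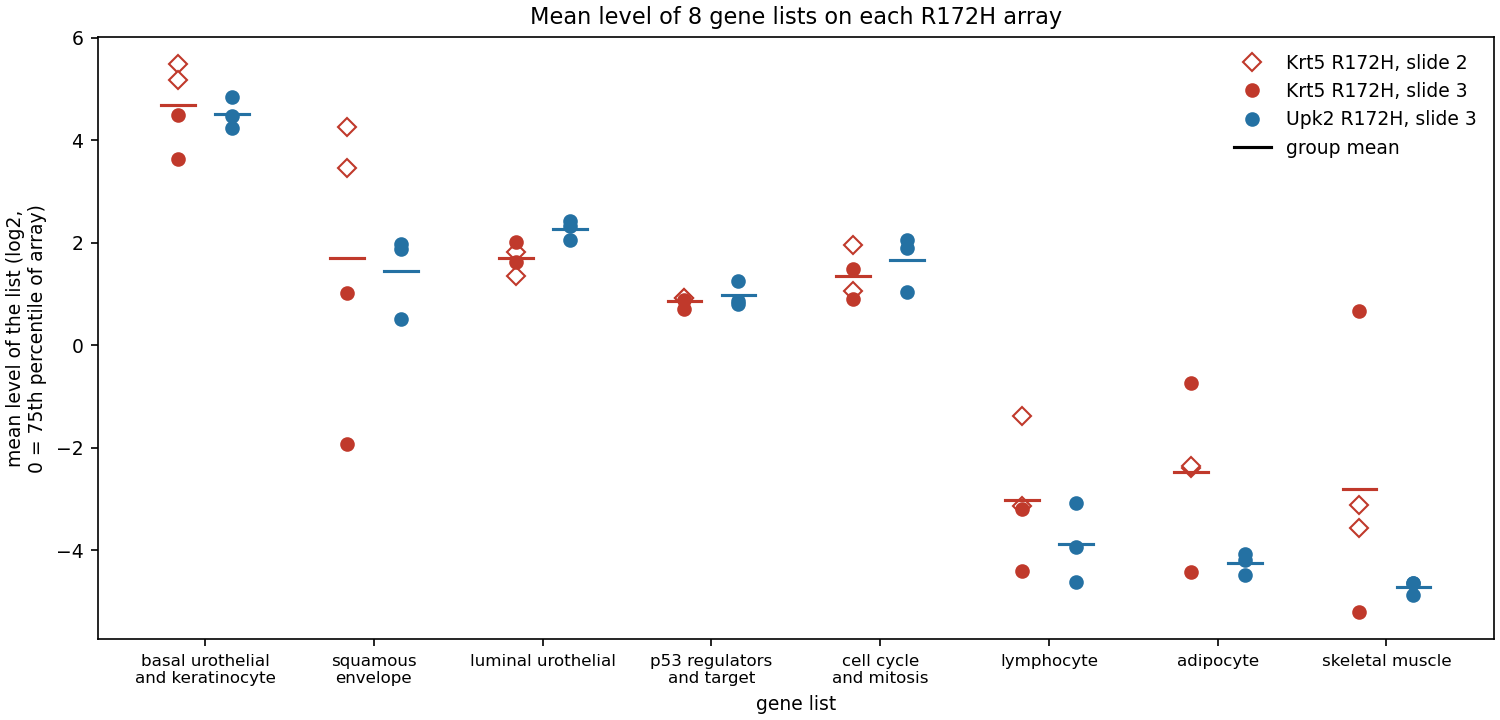
Mean log2 level (scaled to each array's 75th percentile) of marker lists on each R172H array, Krt5 left of Upk2, with 1 point per array, open diamonds for slide 2 and a bar at each group mean. Luminal means do not overlap (1.35 to 2.02 with Krt5, 2.06 to 2.42 with Upk2), while squamous means span −1.92 to 4.26 with Krt5 and 0.51 to 1.97 with Upk2.

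p53 regulators and targets were lower in 22 of 32 members, with a median of −0.15 and the same median on slide 3, and no member reached an unadjusted p of 0.05. Without Upk2 array 3 the median was 0.06. Sesn1, a stress-induced inhibitor of mTORC1 signalling, was the only one whose groups did not overlap, on the lower side. Over all genes 1.38% did not overlap on the lower side and 3.21% on the higher side. Gadd45a, a DNA damage response gene, differed by 0.63 (1.09 on slide 3) and Cdkn2a, which encodes p16 and p19Arf, by 0.79 (0.92), while the apoptosis nuclease Aen differed by −0.40 and the DNA polymerase Polk by −0.47. The 20 tested neighbours of Trp53 on chromosome 11 had a median of −0.11, and −0.09 on slide 3. Of these Tmem88, an inhibitor of Wnt signalling, differed by −1.20 (−0.69 on slide 3) without overlap, and Zbtb4 (0.36), Polr2a (−0.34) and Fxr2 (0.26) lay near 0, the last 2 with the opposite sign by their other probes.

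Cell cycle genes were lower in 30 of 32 members on all arrays and on slide 3, with medians of −0.27 and −0.46, and none reached an unadjusted p of 0.05. Leaving out each array in turn gave medians of −0.61 (without Upk2 array 2) to −0.08 (without Upk2 array 3). The replication licensing genes Mcm5, Mcm6 and Mcm2 differed by −0.72, −0.82 and −0.45, and by −1.04, −0.93 and −0.19 on slide 3, and the mitotic kinase Aurkb by −0.57 (−0.58 on slide 3). The mean level of the list overlapped, at 1.95, 1.06, 0.90 and 1.49 with Krt5 and 1.90, 1.04 and 2.05 with Upk2, above −1.75 ± 0.15 in normal bladders (SD, n = 3). Its median was 0.21 in R270H and −0.92 in Cre-only bladders. Among 27 tested Wnt pathway genes, 3 were higher at an unadjusted p of 0.05 and 0 lower, beside 2.74% and 0.764% of all genes, and the median was 0.05. The T-cell and Wnt transcription factor Tcf7 differed by 1.12 (0.91 on slide 3), but its other probe gave −0.03. The ligand Wnt11 differed by 1.16 (0.83 on slide 3, other probe 1.18) and Wnt5a by 0.79 (0.92 on slide 3, other probe 0.51), while Wnt4 differed by −0.90 (−1.47 on slide 3). Among 22 matrix remodelling genes the collagenase Mmp13 read 1.58, 0.69, −1.79 and −0.82 with Krt5 and −1.88, −1.80 and −2.70 with Upk2. It differed by 2.04 (adjusted p = 0.9998), and by 0.82 on slide 3. Mmp3 differed by 1.32 (1.01 on slide 3). Tnc differed by 1.14 and Plau by 0.79, with −0.01 and 0.23 by their other probes. The list was split 11 above and 11 below 0, with a median of 0.09, and its lowest member was the protease gene Mmp7 at −2.15 (−1.03 on slide 3).

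Immune lists overlapped between drivers. Of the 23 tested lymphocyte genes 20 were above 0, with a median of 0.94, but 12 were above 0 on slide 3, where the median was 0.10. Without Krt5 array 2 the median was 0.26, and without Upk2 array 3 it was 0.43. The mean lymphocyte level was −3.15, −1.37, −3.20 and −4.40 with Krt5 and −3.08, −3.95 and −4.62 with Upk2. Cd8a, the cytotoxic T-cell coreceptor, read −1.59, −2.47, −5.48 and −7.93 with Krt5 and −5.53, −7.69 and −7.26 with Upk2, above background on 3 of 4 and 0 of 3 arrays. Its bound of at least 1.87-fold higher was lost without Krt5 array 1. Neutrophil genes had a median of 0.08, −0.93 on slide 3 and 0.82 without Krt5 array 3. Within this list the neutrophil chemokine Cxcl1 read −3.69, −4.62, −2.06 and −5.02 with Krt5 and −1.63, −1.03 and −1.52 with Upk2, and the cytokine gene Il1b read 1.26, 1.25, −0.06 and 0.01 with Krt5 and −0.38, −0.72 and −1.22 with Upk2. Neither pair overlapped, and they went opposite ways, by −2.15 and 0.75 on slide 3. Macrophage genes had a median of −0.03, with Spp1, the secreted phosphoprotein osteopontin, at 0.88 (1.03 on slide 3) without overlap and the scavenger receptor Cd163, above background on 1 of 4 Krt5 arrays, at −1.37. Interferon genes were split 11 above and 11 below 0 with a median of −0.02, and −0.37 without Krt5 array 2 and 0.38 without Krt5 array 1, with Cxcl9 at 2.03 (1.35 on slide 3) and Rsad2 at −1.11 (−0.57). Antigen presentation genes had a median of 0.25, but −0.16 without Krt5 array 2, −0.12 without Upk2 array 3 and 0.65 without Upk2 array 1. The class II genes H2-Aa and H2-Ab1 differed by 1.25 and 1.03, and by 1.16 and 1.14 on slide 3.

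Genes of fat and skeletal muscle were higher in Krt5 R172H bladders in 9 of 10 and 11 of 11 members, with medians of 1.25 and 1.91. Without Krt5 array 3 these medians were 0.83 and 0.72. Genes above background on 2 to 10 arrays of the series had a median of 0.73 over all R172H arrays. Mean adipocyte level was −2.39, −2.35, −0.74 and −4.42 with Krt5 and −4.49, −4.08 and −4.19 with Upk2. Krt5 array 4 lay within the Upk2 range. Krt5 arrays 1 and 2, above that range, were on slide 2 and had a higher background cut than the slide 3 arrays. At an unadjusted p of 0.05, 4 of 10 adipocyte genes and 4 of 11 skeletal muscle genes were higher and 0 lower, beside 2.74% of all genes, and none passed after adjustment. The share among genes above background on few arrays was not tested. The fat cell hormone Adipoq read −2.96, −3.52, −1.34 and −7.97 with Krt5 and −7.61, −7.63 and −7.22 with Upk2. It was above background on 1 of 4 Krt5 arrays, array 3, and on 0 of 3 Upk2 arrays. The other Adipoq values are not measured levels. Cfd, the fat-derived complement protease adipsin, read 0.80, −2.46, 2.93 and −8.10 with Krt5 and −7.64, −7.77 and −5.19 with Upk2. Krt5 array 4 was not above background for it. Cfd was above background on 3 of 4 Krt5 arrays and 0 of 3 Upk2 arrays and was at least 11.8-fold higher, or at least 4.04-fold without Krt5 array 3. The lipid droplet gene Cidec was above background on Krt5 array 3 alone, where it read 0.66, and its bound of at least 3.19-fold was at least 1.19-fold without that array. The myosin gene Myh4 read 3.28 on Krt5 array 3, against −8.03 to −4.91 on the other 3 Krt5 arrays and −7.67 to −7.25 on the Upk2 arrays. Mean skeletal muscle level was −3.57, −3.12, 0.68 and −5.21 with Krt5 and −4.64, −4.88 and −4.64 with Upk2. Krt5 array 4 lay below every Upk2 array for this mean. Between 3 and 11 skeletal muscle members were above background on the Krt5 arrays, and 6 on each Upk2 array. Smooth muscle genes were above 0 in 13 of 16 members with a median of 0.29, and 0.37 on slide 3. Without Krt5 array 2 that median was −0.11, without Krt5 array 3 −0.01 and without Krt5 array 1 0.67. Acta2, smooth muscle actin, differed by 0.78 (0.58 on slide 3). Fibroblast genes had a median of −0.26, 0.02 on slide 3 and 0.13 without Upk2 array 2, with Fap at 0.70 (1.20 on slide 3) and Dpt at −1.30 (−0.74). How much attached tissue each sample held was not tested.

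Single arrays set the sign of several other list medians. The endothelial median was −0.43, with 13 of 14 members below 0, and −0.22 on slide 3, but without Upk2 array 2, whose mean level was 2.28 against 0.02 and −0.60 on the other Upk2 arrays, it was 0.39. The NRF2 oxidative stress median was −0.25, and −0.49 on slide 3. The erythroid median was −1.01, against 0.19 on slide 3 and 0.84 without Upk2 array 2. The nerve median was 0.30 and 0.38 on slide 3, but −0.05 without Upk2 array 1. Epithelial to mesenchymal transition genes had a median of 0.03, EGFR ligands and receptors −0.01, hedgehog genes 0.13 and glycolysis genes −0.06, beside 0.08 for all genes. FGF genes had a median of 0.42, 0.35 on slide 3, and 0.24 to 0.56 on leaving out each array. In all, 498 genes of 528 on the 28 lists were tested, and 0 passed after adjustment, as for all genes (0%).

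**Figure D5:**
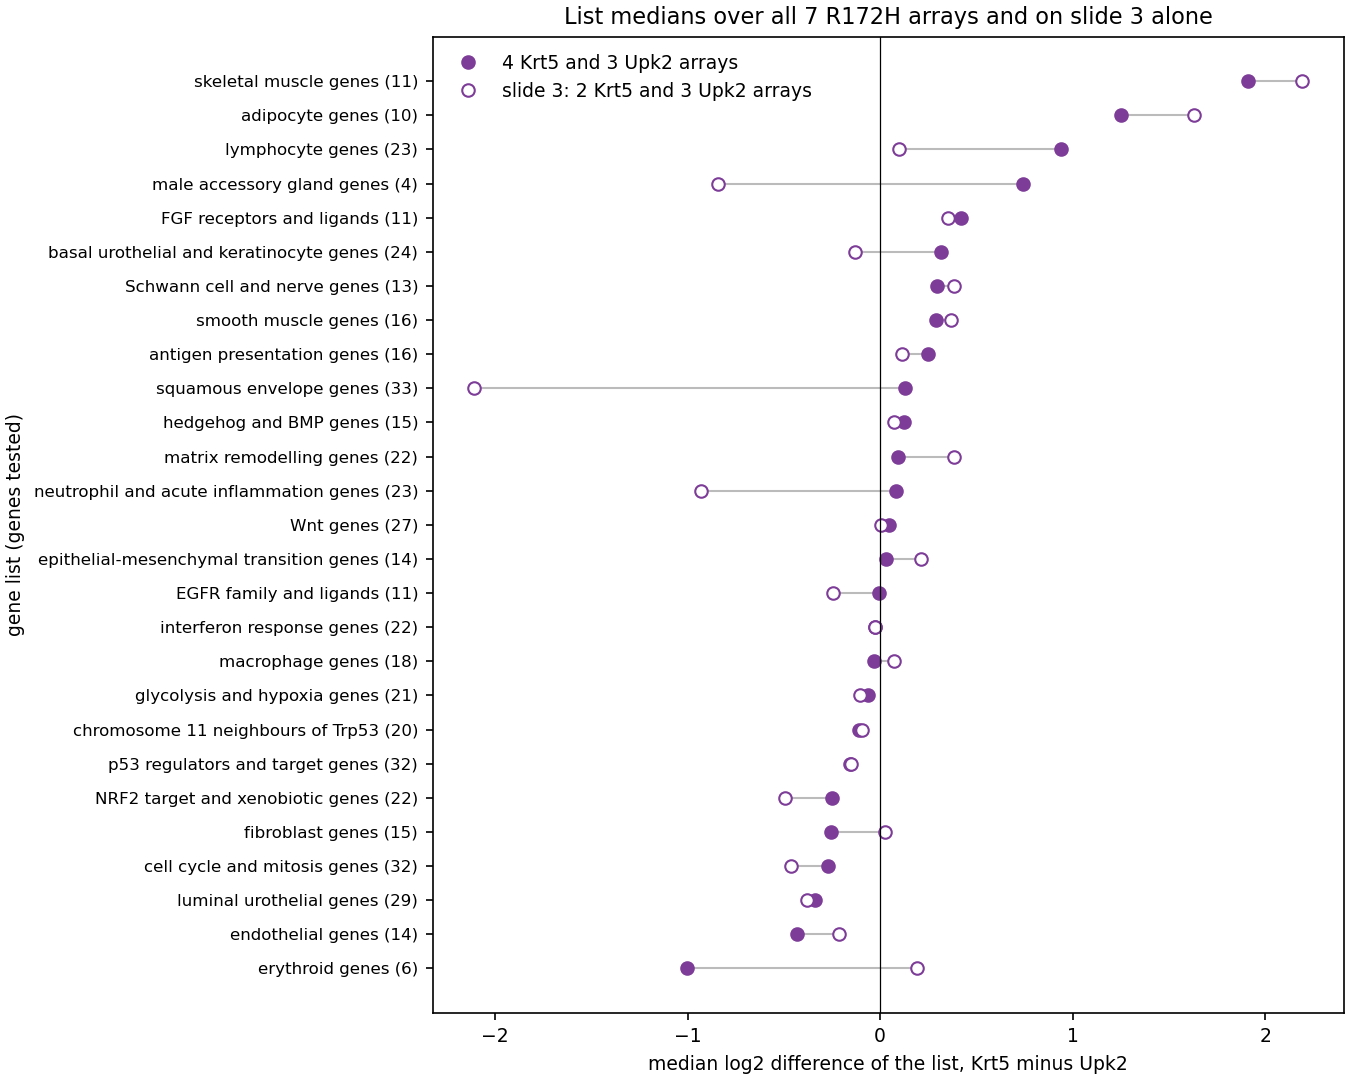
Median log2 difference, Krt5 minus Upk2, of each gene list in R172H bladders over all 7 arrays and over the slide 3 arrays. The squamous median is 0.13 over all arrays and −2.11 on slide 3, while the luminal medians are −0.34 and −0.38 and the skeletal muscle medians 1.91 and 2.19.

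Whether the driver difference depended on the allele was asked by setting the R172H difference against the R270H difference in the same limma fit. It passed for 0 of 17404 genes (0%), with 371 (2.13%) at an unadjusted p of 0.05 and a lowest adjusted p of 0.9998. The 5 genes with the strongest evidence included Cxcl17, at −3.68 in R172H and 3.02 in R270H bladders, a difference between the alleles of −6.70 (SE 1.77). Gne, a sialic acid synthesis enzyme, differed by −0.74 and 0.73, a difference of −1.47 (SE 0.38). Rwdd3 differed by 0.14 and −1.51, a difference of 1.66 (SE 0.44). Pisd-ps2 and the olfactory receptor gene Olfr78 were above background on 2 of 4 Krt5 and 0 of 3 Upk2 R172H arrays, so no difference is given for them. With 3 and 2 R270H arrays, the missed threshold does not show that both alleles act alike.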

How the data were processed

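Whole-bladder RNA was read on 1-colour Agilent arrays. The intensity values used here are gProcessedSignal from the authors' deposited scanner files, background-subtracted by Feature Extraction 11.0.1.1 per the file headers, which name build mm9. The submitters' processing notes name Feature Extraction 9.1 and limma. The authors' deposited normalized table holds log2 values. Each of its columns reaches the same highest value (18.8), and it was used as an alternative only.

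Control spots and outlier-flagged spots (53 to 301 of 59305 an array) were left out, spots of a probe were averaged, and log2 intensity minus each array's 75th percentile was taken. Of 56605 probes, 32994 had 1 symbol through RefSeq accessions (GRCm38.p6 names) and 23611 none. The probe with the highest mean level stood for a gene. Genes above background on at least 2 arrays were kept (17421), and 17 with a flagged value were removed. limma 3.58.1 (R 4.3.3) fitted 8 group means over 22 arrays, with Benjamini-Hochberg adjustment at 0.05. The fit was tested on simulated data. Depth is not a quantity of arrays, and the number of arrays limits the precision.

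The comparison, its members and all gene lists were chosen with earlier results of these data known. Genes named are Trp53, Krt5, Krt14, Upk2 and Cdkn1a, the 10 highest and 10 lowest by t among genes above background on every array of an R172H group, the 5 strongest allele differences, and from a list the members at an unadjusted p of 0.05 or with the strongest evidence. Genes without overlap, the Upk2 neighbours and B-cell markers were added after their values were seen. Some list members are not reported here. Alternatives covered normalization, background, filter, probe, slide, scanner, sex, sample code, weights, replicates and samples fitted. A common floor, averaged sample codes, leaving out both slide 2 arrays, and the comparisons over the other 9 and all 16 driver arrays were added after seeing the data.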

Additional observations from a re-analysis of the deposited data

Results flagged for a closer look

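In groups of 4 arrays, an array was singled out where its gap to the nearest other array took a larger share of the group's range than Dixon's 95% critical value. Of 53 values checked in Krt5 R172H bladders 2 met this, and chance alone does so in about 1 of 20 groups. Foxr1 had a share of 0.896, with Krt5 array 2 the highest at −2.40 and the other 3 at −5.31 to −5.01. Krt5 array 1, at −5.01, was not above background, so this share rests in part on a value that is not a measured level. The mean level of p53 regulators and target genes had a share of 0.8294, with Krt5 array 3 the lowest at 0.71 and the others at 0.89 to 0.93. The Upk2 R172H group holds 3 arrays and could not be checked in this way.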

How the results depend on the processing

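The R172H comparison called 0 genes, and 1 with quantile normalization (Cxcr5, −4.92, adjusted p = 0.0413), 4 with array weights (Cxcr5, Hddc3, Defb48 and Rimkla), 1 with a common floor (Hddc3, −1.03), 2 with arrays of a sample code averaged (Cxcr5 and Hddc3) and 1 without the 2 slide 2 arrays (Foxr1, −3.33, adjusted p = 0.0471). Leaving out each array in turn gave 0 to 3: Foxr1 without Krt5 array 2, Hddc3 without Krt5 array 3, and 9530053A07Rik, Aspn and Atp1a4 without Upk2 array 2. The allele comparison called 2 with slide as a block (Krt90 and Ms4a1) and 1 with a common floor (Kcne4). The other 9 arrays called 1 with the slide block (Ms4a1) and 2 with the floor (Gm16894 and Gnat2). All 16 driver arrays called 1 with quantile normalization, 2 with the slide block, 1 with the scanner block, 1 with array weights, 5 with the floor and 2 without the slide 2 arrays, with 0 to 1 on leaving out single arrays. Other settings called 0. The cause of these calls was not tested. Same-numbered arrays of the drivers did not pair (correlations of their deviations −0.12, 0.11 and −0.18), and a replicate block called 0 genes, with 1152 at an unadjusted p of 0.05. Some named genes reversed. Trp53 gave 0.070 with the sex label as a covariate, 0.0027 with sample code as a random block, 0.23 without Krt5 array 2, 0.02 without Upk2 array 1 and 0.48 without Upk2 array 3 (−0.80 to 0.48 on leaving out each array). Krt5 gave −0.10 with quantile normalization, −0.088 in the deposited table, −0.17 with the slide block, −0.19 on slide 3 or without the slide 2 arrays and −0.15 with the scanner block. With the slide block Krt14 gave −0.022, Lor −0.23, Casq2 −0.11, Mertk 0.16 and Rwdd3 −0.040. On slide 3 and without the slide 2 arrays Krt14 gave −0.093, Lor −0.50, Lce1m −0.39, Cd3e −0.16 and Casq2 −0.25. Rwdd3 gave −0.032 as the mean over probes, −0.067 with the scanner block and −0.15 without Upk2 array 1 (−0.15 to 0.31 on leaving out each array). With normexp Cd163 gave 0.19 and Mertk 0.35, and Mertk gave 0.0023 in the deposited table, which holds no value for Cxcr5, Hddc3, Robo3 or Cxcl17. The slide 3 and compared-arrays-only settings were not run for the other 9 and all 16 arrays. Dim genes are limited by the 2 slide 2 arrays, whose background cut was −2.69 and −2.75, against −5.81 to −5.00 on the other 5.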

Other observations

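Of the 10 lowest genes by t, 4 lie on chromosome 9 (Cxcr5, Foxr1, Bcl9l and Robo3), against 1 of the 10 highest and 5.65% of the genes tested. In Cre-only bladders, which carry no mutant Trp53 allele, Cxcr5, above background on 1 of the 2 Krt5 arrays there, differed between Krt5 and Upk2 drivers by −3.18, Foxr1 by −1.62 and Bcl9l by −1.07, and in R270H bladders by −2.73, −2.16 and −0.54. Hddc3 differed by 0.66 in Cre-only bladders, where it was above background on 1 of 2 arrays with each driver. Smooth muscle genes had a median difference of 1.45 in Cre-only bladders, against 0.29 in R172H bladders, and the difference between these was not tested.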
